A study of Mus musculus with 12 samples.

Results

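The acyl-CoA thioesterases Acot1, Acot2 and Acot7 and the long-chain acyl-CoA synthetases Acsl1, Acsl3, Acsl4, Acsl5 and Acsl6 were followed in mouse heart muscle, with and without dystrophin, at a young and an older age. Members were taken as the probe sets, each a group of short probes read as 1 value, that the array annotation pairs with 1 of these 8 genes and with no other gene. Of the 8 genes, 6 had such a probe set, out of 12393 genes so annotated on the array. Acsl1 and Acsl3 had none in the annotation used and were not analysed here. The 6 genes were covered by 8 probe sets, and 7 of these had a mean signal of at least 100 over all arrays and were tested. The genes were chosen by earlier results of the same arrays, the measured differences between mdx and control hearts among them, so these differences are given below as descriptions without a test. Change with age is tested, averaged over genotypes and within each. Within 1 genotype it shares arrays with the mdx differences known at the choice, so those p-values are not independent of that choice.

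Total RNA of cardiac muscle had been hybridised to 12 Affymetrix arrays, 3 for each of 4 groups: control hearts at 8 weeks, mdx hearts at 8 weeks, control hearts at 10.5 months and mdx hearts at 10.5 months. The mdx mouse carries a mutation in the dystrophin gene Dmd in every cell and is the usual mouse model of Duchenne muscular dystrophy, and the series title calls the controls wild type. The labels give no strain, sex, treatment or array batch, and they do not say whether the replicates were separate animals, so p-values measure the spread between these samples, which may be technical. Titles and sources name heart, although extraocular muscle appears among the keywords.

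Within the cell, a fatty acid can be burned or stored only after it has been joined to coenzyme A. Acyl-CoA synthetases carry out this activation at the cost of ATP, and acyl-CoA thioesterases reverse it by splitting the acyl-CoA into free fatty acid and coenzyme A. The heart draws most of its energy from fatty acids, and in it Acot1 and Acot2 are known as genes that respond to the fatty acid receptor PPAR alpha, Acot1 acting in the cytosol and Acot2 in the mitochondrial matrix.

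The 250 bases upstream of the annotated start are shown for 3 genes, because Acot1 and Acot2 are neighbours on chromosome 12 whose signals moved in opposite directions with age, and because Acsl6 had the largest rise of the 6 genes when both genotypes were averaged. The sequences are those of RefSeq on GRCm38.p6, 5′ to 3′ on the strand of the gene. Capitals mark matches to AGGTCA (the nuclear receptor half-site) or CCAAT on either strand. Acot1 lies at chr12:84009252-84009501 and Acot2 at chr12:83987611-83987860, both on the + strand with no other gene listed between the 2 genes. The Acsl6 window is chr11:54303574-54303823 on the + strand, 1 of 3 listed for this gene and the only member window with a half-site.
Acot1: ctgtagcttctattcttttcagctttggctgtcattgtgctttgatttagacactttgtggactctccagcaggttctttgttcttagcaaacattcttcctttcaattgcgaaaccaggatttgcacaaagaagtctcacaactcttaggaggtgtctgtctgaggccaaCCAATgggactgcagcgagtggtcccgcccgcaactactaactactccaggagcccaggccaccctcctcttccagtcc
Acot2: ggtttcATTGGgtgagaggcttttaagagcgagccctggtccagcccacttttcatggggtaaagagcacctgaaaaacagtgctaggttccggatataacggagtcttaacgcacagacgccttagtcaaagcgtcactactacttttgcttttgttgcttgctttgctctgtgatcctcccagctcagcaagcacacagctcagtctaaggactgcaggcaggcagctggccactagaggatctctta
Acsl6: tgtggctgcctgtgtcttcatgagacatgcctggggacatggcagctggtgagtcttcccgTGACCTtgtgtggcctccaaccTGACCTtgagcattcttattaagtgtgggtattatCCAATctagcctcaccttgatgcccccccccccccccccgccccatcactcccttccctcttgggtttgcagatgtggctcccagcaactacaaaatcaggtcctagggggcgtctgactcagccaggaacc

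All 6 genes matched the RefSeq promoter table, with 8 windows. The windows of Acot1, Acot2 and Acsl5, and 2 of the 3 of Acsl6, each held 1 match to CCAAT, which occurred in 33.8% of the 32851 windows of this length in the table. The Acot1 match lay on the + strand at bases 79 to 75 before the start, and the Acot2 match on the - strand at bases 244 to 240. AGGTCA occurred in 14.0% of all windows. In the Acsl6 window it was found on the - strand at bases 189 to 184 and again at bases 167 to 162. A pair of AGGTCA on the same strand with 1 base between them, the usual form of a PPAR element, occurred in 0.0335% of all windows and in no window of the 6 genes, and TATAAA, present in 12.4% of all windows, was in none of theirs. These matches describe the letters in the windows and say nothing on binding.

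The libraries bore out their genotype labels: Dmd signal was 607 to 839 on the 6 control arrays and 159 to 286 on the 6 mdx arrays. Signals are given after scaling each array to a trimmed mean of 500. All 8 measured fast skeletal muscle markers and both measured extraocular muscle markers, of 4 listed, lay below the mean signal of 100, while the 9 ventricular markers summed to 132146 or more on every array, as in heart. On 4 arrays the brightest signals reached higher than on the rest, namely control replicate 2 and mdx replicates 1 and 2 at 8 weeks and mdx replicate 3 at 10.5 months. Leaving these 4 out kept mdx replicate 3 as the only young mdx array. What changes without them cannot be told apart from the effect of having fewer arrays. Atrial markers also varied, with a sum of 5144 to 7057 in control and 12743 to 13702 in mdx hearts at 8 weeks. At 10.5 months these sums were 24014, 17806 and 5677 in control replicates 1 to 3 and 12518 to 18733 in mdx hearts. Most of these sums was Nppa, the atrial natriuretic peptide gene, and the other 6 of the 7 markers ran the other way in old hearts, where they lay below control in mdx (median log2 difference of the 7 -0.88, 0 called). The atrial light chains Myl7 and Myl4 and the calcium pump regulator Sln had old means of 1967, 2138 and 1157 in control and of 235, 429 and 43.0 in mdx hearts.

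Across both genotypes, 3 of the 6 genes changed between 8 weeks and 10.5 months at an adjusted p below 0.05 (limma with Benjamini-Hochberg adjustment over 14932 probe sets): the mitochondrial thioesterase Acot2 and the synthetase Acsl6 rose, and the cytosolic thioesterase Acot1 fell. Of all 8852 tested genes, 11.5% were called in this comparison. The median log2 change was 0.15 over the 6 genes, 4 of them above 0, and 0.00 over all tested genes. The signals of whole heart RNA come from all its cells, so a change in the number of cells of a type and a change in RNA per cell cannot be told apart.

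**Figure D1:**
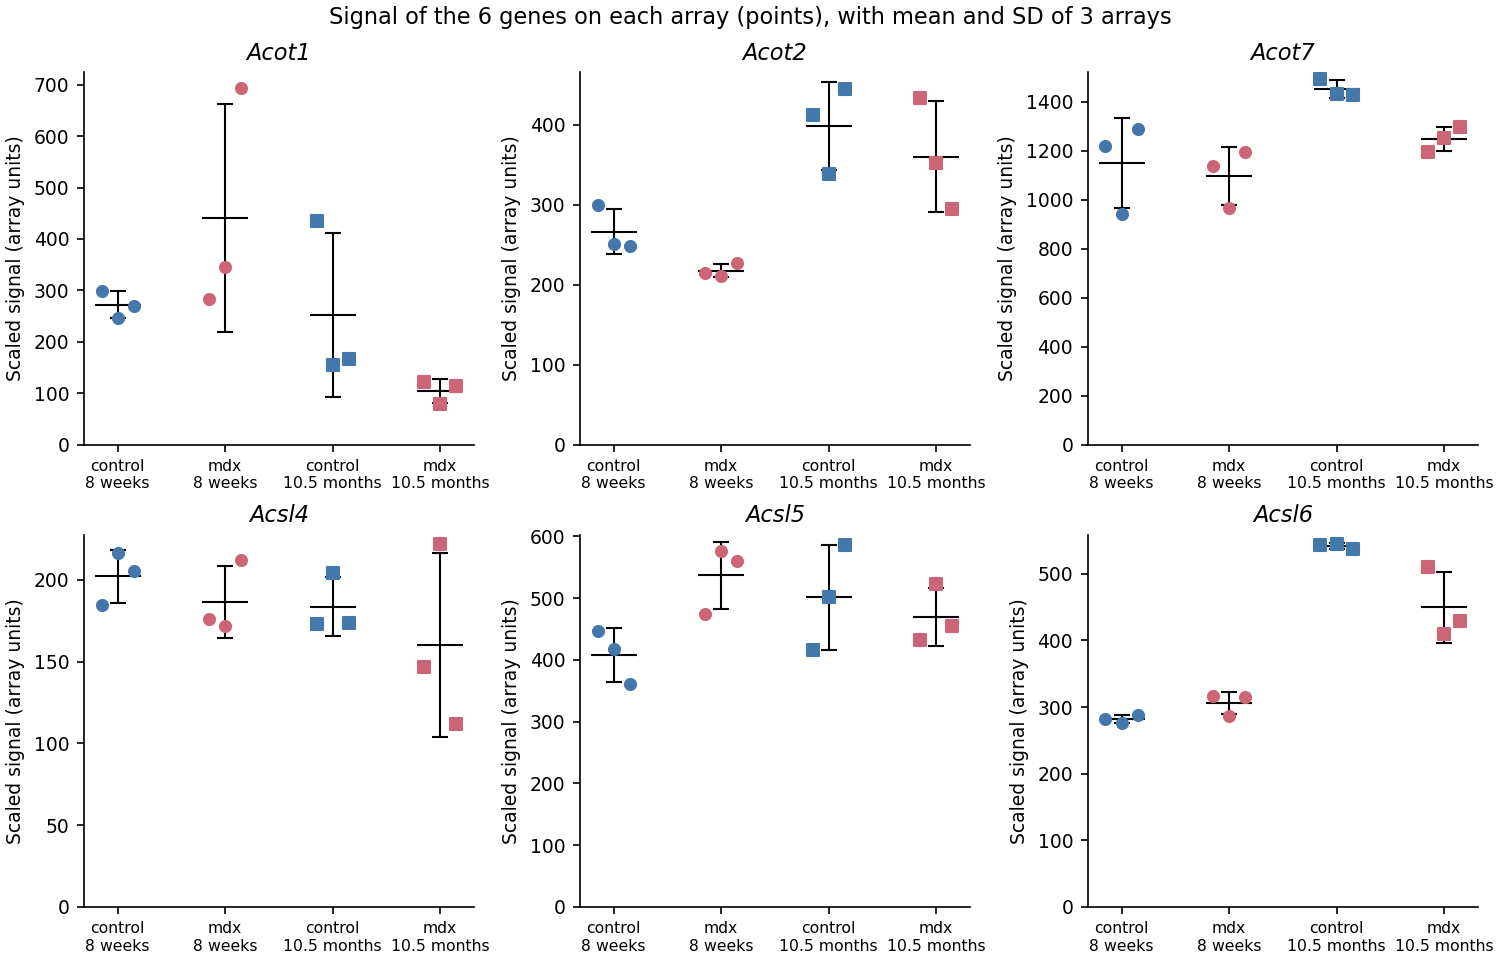
Scaled signal (vertical axes, linear scale) of each of the 6 genes by its brightest probe set, with 1 point per array and bars for mean and SD over 3 arrays in control and mdx hearts at 8 weeks and 10.5 months. All 6 Acsl6 points at 10.5 months, from 410 to 545, lie above all 6 at 8 weeks, from 276 to 317, whereas Acot1 spreads widely in mdx hearts at 8 weeks (282 to 694) and in control hearts at 10.5 months (154 to 436).

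Acot1, the cytosolic thioesterase, had signals of 299, 246 and 270 in control hearts at 8 weeks and of 282, 346 and 694 in mdx hearts of that age. At 10.5 months the control arrays gave 436, 154 and 167, and the mdx arrays 122, 78.1 and 115. The 3 old mdx arrays thus lay below the other 9, and 1 array stood high in each of the young mdx and old control groups. Averaged over genotypes, Acot1 fell by 0.97 ± 0.24 on the log2 scale (SE; 1.96-fold lower, limma adjusted p = 0.0249). In mdx hearts alone it fell by 1.71 ± 0.34, or 3.26-fold (limma adjusted p = 0.0106), and the young and old arrays did not overlap. The same arrays enter the mdx differences known when the genes were chosen, so this p-value and its calls are no independent support. In control hearts the age difference was -0.23 ± 0.34 (limma adjusted p = 0.835), with overlapping arrays. Both age differences are set apart by -1.48 ± 0.49, the same contrast as the change of the mdx effect with age, which is given without a test. The averaged fall missed the threshold in 3 of 26 alternative analyses, without control replicate 2 at 10.5 months (adjusted p = 0.0643), without control replicate 3 at 10.5 months (0.0543) or without mdx replicate 2 at 10.5 months (0.0636), while the fall in mdx hearts was called in all 27. Ordered by mean, the groups ran from mdx at 8 weeks (441 ± 221, SD, n = 3) through control at 8 weeks (272 ± 26.2) and control at 10.5 months (252 ± 159) to mdx at 10.5 months (105 ± 23.5), and no gap between neighbours in this order exceeded the larger of their SDs.

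Acot2, the mitochondrial paralog encoded next to Acot1, gave 299, 251 and 249 in control hearts and 215, 210 and 227 in mdx hearts at 8 weeks. The older arrays gave 412, 338 and 445 in control and 433, 353 and 294 in mdx hearts. Young and old arrays of the same genotype did not overlap in either genotype, and Acot2 was among the 3 of 6 genes higher on every old than on every young control array (12.3% of all genes in that direction) and the 4 of 6 without overlap in mdx hearts (31.1% of all genes in either direction), although the lowest old mdx array (294) lay below the highest young control array (299). Averaged over genotypes, Acot2 rose by 0.58 ± 0.11 on the log2 scale (limma adjusted p = 0.0103), and it was called in all 26 alternatives. In mdx hearts it rose by 0.64 ± 0.16 (limma adjusted p = 0.0262), a call that held in 20 of 27 alternatives. The difference in control hearts was 0.52 ± 0.16 (limma adjusted p = 0.228). Over the 12 arrays, log2 signals of Acot1 and Acot2 had a Pearson correlation of -0.496, given as a description since the arrays share groups. A brighter probe set shared by Acot1 and Acot2 did not rise with age. Its medians were 1001 at 8 weeks and 849 at 10.5 months in control hearts, and 1008 and 594 in mdx hearts.

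Acsl6, a synthetase known mainly from brain, where it favours docosahexaenoic acid, gave 283, 276 and 288 in control and 317, 287 and 315 in mdx hearts at 8 weeks. The older control arrays gave 543, 545 and 538 and the older mdx arrays 511, 410 and 429. Every old array was higher than every young one, an order that 3.02% of all tested genes showed in the same direction. The rise averaged over genotypes was 0.69 ± 0.09 on the log2 scale, or 1.61-fold (limma adjusted p = 0.00162), and it was called in all 26 alternatives. In control hearts Acsl6 rose 1.83-fold (log2 0.87 ± 0.13, limma adjusted p = 0.0191) and was the single member called of 6, against 0.158% of all genes. In mdx hearts it rose 1.42-fold (log2 0.51 ± 0.13, limma adjusted p = 0.0282), 1 of 3 members called beside Acot1 and Acot2, against 11.3% of all genes. The call in control hearts held in 18 of 27 alternatives and was lost on leaving out any 1 of the 6 control arrays, with a log2 difference of 0.86 to 0.88 in each case. That in mdx hearts held in 20 of 27. Without the 4 arrays of wide range, replicate 3 was the only young mdx array. The log2 rises in mdx hearts were then 0.50 for Acsl6 and 0.71 for Acot2, and neither call held on these fewer arrays. By mean, old control (542 ± 3.82, SD, n = 3) stood first, then old mdx (450 ± 53.6), young mdx (306 ± 17.0) and young control (282 ± 6.0), and every gap exceeded the larger SD of the pair.

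**Figure D2:**
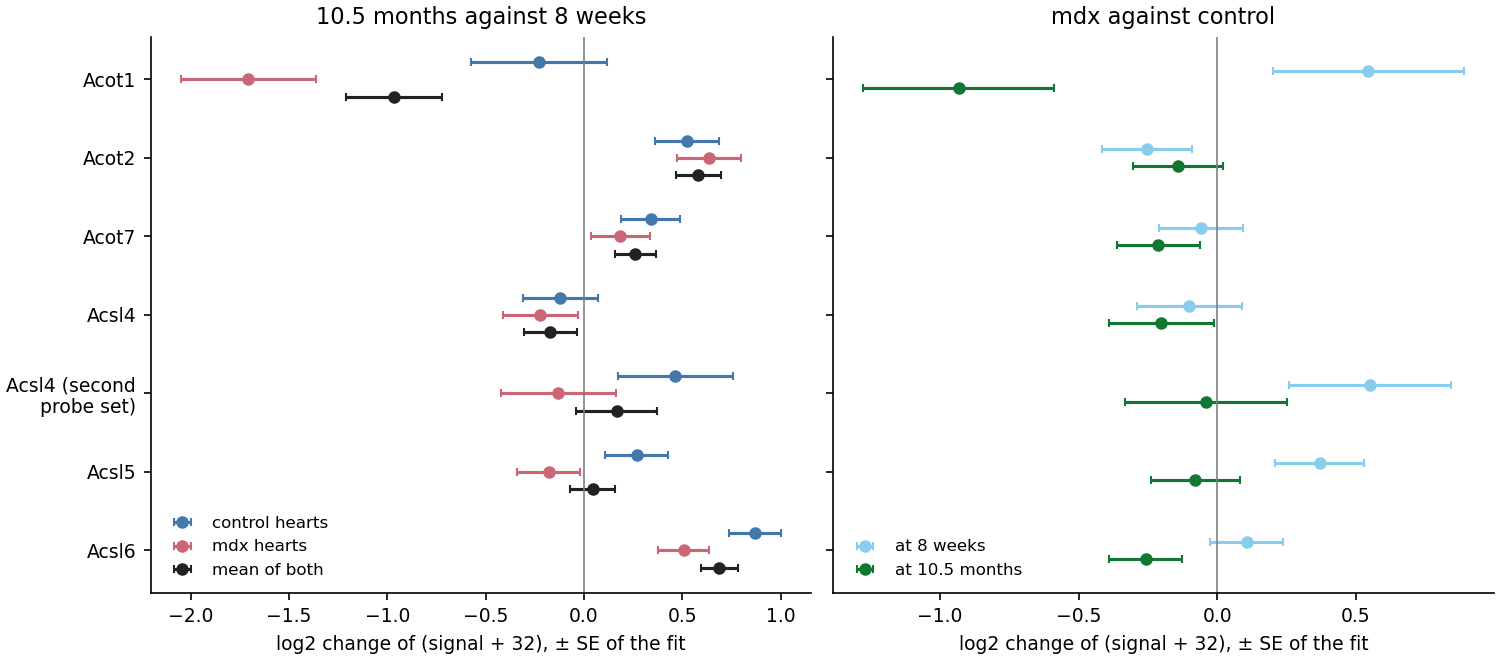
Log2 differences with standard errors for the 7 tested probe sets of the 6 genes, with the second Acsl4 probe set on its own row. The left panel shows 10.5 months minus 8 weeks within control hearts, within mdx hearts and averaged over both. The right panel shows mdx minus control at each age. With age in mdx hearts Acot1 is lowest at -1.71, while Acsl6 and Acot2 lie above 0 in both genotypes.

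Acot7, a cytosolic thioesterase that is abundant in neurons, did not pass the test with age. Its signals were 1218, 942 and 1291 in control and 1136, 965 and 1194 in mdx hearts at 8 weeks, and 1493, 1432 and 1427 in control and 1197, 1252 and 1296 in mdx hearts at 10.5 months. Within each genotype all old arrays lay above all young ones, and the averaged log2 difference was 0.26 ± 0.11 (limma adjusted p = 0.120).

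Acsl5, a synthetase of mitochondria and endoplasmic reticulum best known from intestine and liver, gave 447, 417 and 361 in control and 474, 576 and 560 in mdx hearts at 8 weeks. The older hearts had signals of 416, 502 and 586 in control and 433, 523 and 455 in mdx hearts, so ages overlapped in control and in mdx hearts. The averaged age difference was 0.04 ± 0.11 (limma adjusted p = 0.824), made of 0.27 in control and -0.18 in mdx hearts.

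Acsl4, which prefers arachidonic acid and is known for its part in ferroptosis, was covered by 3 probe sets. The brightest gave 185, 217 and 205 in control and 176, 172 and 212 in mdx hearts at 8 weeks, and 173, 204 and 173 in control and 147, 222 and 112 in mdx hearts at 10.5 months. All 4 groups overlapped on it, and its averaged age difference was -0.17 ± 0.13 (limma adjusted p = 0.414). The second probe set differed in sign, at 0.17 ± 0.21 (limma adjusted p = 0.618), so Acsl4 has no settled direction with age. The third, with a mean signal of 75.1 and a range of 10.9 to 146, was below the filter and was left out.

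The difference between mdx and control hearts reached an adjusted p below 0.05 for none of the 6 genes at 8 weeks (0 of 6, against 2.15% of all genes in limma) and for none at 10.5 months (0 of 6, against 0.0678%). At an unadjusted p below 0.05 there was 1 of 6 at each age, Acsl5 in young and Acot1 in old hearts. Of all 14932 tested probe sets, 2661 had such a p at 8 weeks and 1100 at 10.5 months. The genes were chosen with these contrasts known, so these counts describe them and support nothing. In young mdx hearts Acsl5 stood 0.37 ± 0.16 above control (log2, mean 537 ± 54.7 against 409 ± 43.6, SD, n = 3) and Acot2 0.25 lower (log2 -0.25 ± 0.16, 217 ± 8.56 against 266 ± 28.6), and for these 2 of 6 genes the arrays did not overlap. Over all genes 20.1% did not overlap in either direction. For Acot1 the young difference was 0.54 ± 0.34, and it became 0.19 without mdx replicate 3. Without the 4 arrays of wide range it was 1.20, but mdx replicate 3, the highest Acot1 array, was then the only young mdx array.

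At 10.5 months all 6 genes had a mean log2 difference below 0, with a median of -0.21 against -0.02 over all genes. This sign was not stable for Acsl4 and Acsl5, which reached 0.023 and 0.035 among the alternatives, and Acot2 reached -0.018. For Acot1, Acot7 and Acsl6, 3 of 6 genes, every mdx array read lower than every control array, beside 10.8% of all genes in that direction. Acot1 differed by -0.93 ± 0.34 and Acsl6 by -0.26 ± 0.13 on the log2 scale, and Acot7 by -0.21 ± 0.15. The Acot1 value was -0.50 without control replicate 1, the array with the highest atrial sum and the highest old Acot1 signal, and -1.17 at the other end of the range over left-out arrays. It was -0.62 with the mean log2 atrial signal as a covariate. Acot2 (-0.14 ± 0.16), Acsl4 (-0.20 ± 0.19) and Acsl5 (-0.08 ± 0.16) had overlapping arrays. The change of the mdx difference between the ages, known when the genes were chosen, is again a description: 0 of 6 genes were called, against 0.158% of all genes, and 1 of 6 had an unadjusted p below 0.05. Of all 14932 tested probe sets, 1813 had such a p. The change was largest for Acot1, at -1.48 ± 0.49, then Acsl5 at -0.45 ± 0.23 and Acsl6 at -0.36 ± 0.19. With the atrial covariate the values of Acot1 and Acsl5 were -0.97 and -0.68. Without the 4 arrays of wide range that of Acot1 was -2.19, with replicate 3 as the only young mdx array. All 7 atrial markers also had a value below 0 in this contrast, with a median of -1.16, and their part in the Acot1 value was not tested beyond that covariate. The mdx differences and the age differences share the same control and mdx arrays and are not independent of each other.

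Other enzymes of fatty acid activation and release were read from lists that had been written with earlier results of these data known. With age over both genotypes 11.5% of all tested genes were called. Of 10 other thioesterases tested, 2 rose with age over both genotypes and 0 fell: Acot9, a mitochondrial thioesterase (log2 0.42 ± 0.10, limma adjusted p = 0.0190), and Lypla1, which removes palmitate from proteins (0.52 ± 0.14, adjusted p = 0.0317). Their median was -0.09, with 4 of 10 above 0. Without the 4 arrays of wide range 0 rose, 1 fell (Acot8, a peroxisomal thioesterase, which was also called lower under quantile normalization) and the median was 0.08. Of 8 other synthetases tested, 0 rose and 2 fell, all 8 lay below 0, and the median was -0.33. All 8 also lay below 0 under quantile normalization, under median scaling and with a block for the arrays of wide range (medians -0.31, -0.29 and -0.32). Without the 4 arrays of wide range, with a single young mdx array, 2 of 8 lay above 0 and the median was -0.28. Acsf2, a mitochondrial medium-chain synthetase, fell by 1.42 ± 0.19 (limma adjusted p = 0.00134), from a mean signal of 117 to 37.0 in control and from 210 to 36.0 in mdx hearts. Its overall mean of 100.1 met the filter of 100 only through the young hearts, so the filter favoured a fall in this gene, and it was called in all 25 alternatives that tested it, the one with no filter among them. Acss1, which activates acetate in mitochondria, fell by 0.48 ± 0.14 (limma adjusted p = 0.0430), but differed by -0.19 without the 4 arrays of wide range (adjusted p = 0.366). The rises of Lypla1 (0.31, adjusted p = 0.172) and Acot9 (0.46, adjusted p = 0.0539) also missed the threshold without these arrays.

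Among the steps around activation, 0 of 12 genes of fatty acid uptake and binding and 0 of 23 genes of mitochondrial import and beta-oxidation were called with age. For these and the next lists the share over all tested genes was 11.5%. Vldlr, a lipoprotein receptor of the uptake list, was called higher under quantile normalization and without the 4 arrays of wide range. Of the 23, 20 lay below 0 with a median of -0.29. With all arrays kept, 20 lay below 0 under quantile normalization (median -0.17) and under median scaling (-0.24). With a block for the arrays of wide range 21 did (-0.13). Once these 4 arrays were left out, with a single young mdx array, the median was 0.00 with 12 above 0. The nearest to the threshold was Etfb, a subunit of the electron transfer flavoprotein, at -0.58 ± 0.18 (limma adjusted p = 0.0554). Of 11 peroxisomal genes, 1 rose, Crot, the carnitine octanoyltransferase (0.36 ± 0.10, limma adjusted p = 0.0385), and 0 fell. Of 20 triglyceride genes, 1 fell, Pnpla2, the main triglyceride lipase, by 0.77 ± 0.14 (limma adjusted p = 0.00752), and 0 rose. Without the 4 arrays of wide range Crot differed by 0.26 (adjusted p = 0.172) and Pnpla2 by -0.42 (adjusted p = 0.0503). Of 15 genes of PPAR control and its targets, 0 rose and 3 fell: the retinoid receptors Rxrb (by 0.80 ± 0.18, limma adjusted p = 0.0161) and Rxra (by 0.47 ± 0.14, adjusted p = 0.0406), and Pdk2, a kinase that restrains pyruvate use (by 0.53 ± 0.13, adjusted p = 0.0221). Without the 4 arrays of wide range 1 of these 3 was called, Rxra, while Rxrb (-0.99, adjusted p = 0.0561) and Pdk2 (-0.33, adjusted p = 0.119) were not, and the Rxra call was lost in 14 of 26 alternatives. Acot1 and Acot2, both known PPAR alpha targets themselves, stood on opposite sides of 0 beside this list, whose median was -0.11. Between mdx and control, 0 genes of any list were called at 10.5 months. At 8 weeks Acaa1a was called higher (1 of 11 peroxisomal genes). Called lower were Agpat5 and Dgat1 (2 of 20 triglyceride genes) and Klf15 (1 of 15 genes of the PPAR list). The remaining fatty acid lists had 0, and over all genes 2.15% were called. Without the 4 arrays of wide range Agpat5 was the 1 gene still called.

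**Figure D3:**
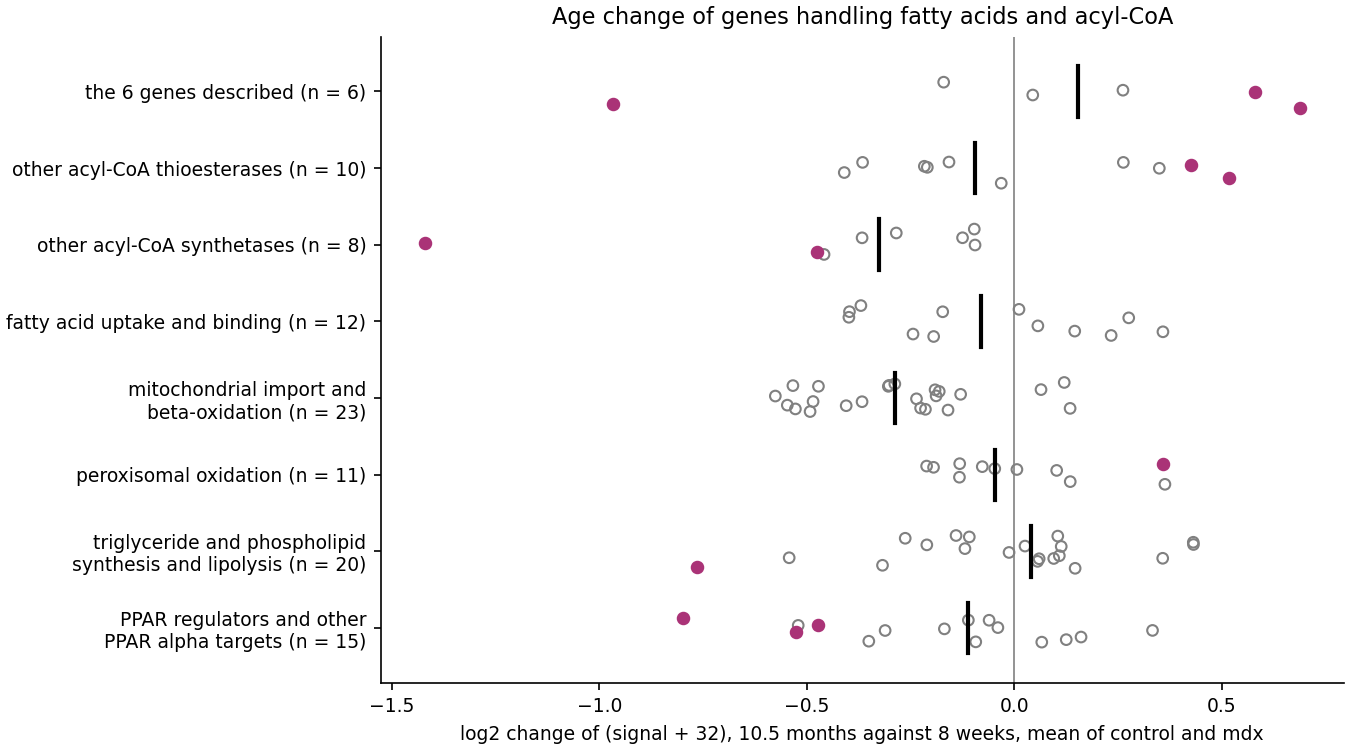
Log2 difference with age, averaged over genotypes, for the 6 genes and for the tested genes of each fatty acid list, with 1 point per gene, filled where limma's adjusted p is below 0.05 and with a bar at the median. The 6 genes spread from -0.97 (Acot1) to 0.69 (Acsl6), while all 8 other synthetases lie below 0 (6 of 8 without the 4 arrays of wide range).

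The genes whose log2 signals followed a member most closely over the 12 arrays, among all other tested genes, are given by Pearson correlation as a description, since the arrays share groups and range. Nearest to Acot1 were Chka, a choline kinase, at 0.937, Rbm26 at 0.886 and Lrrc58 at 0.860. Nearest to Acot2 were Gsdme, a gasdermin, at 0.964, Tug1 at 0.947 and Bloc1s6 at 0.922. Acsl6 was followed by Capza2, an actin capping subunit, at 0.951, Adssl1, the muscle adenylosuccinate synthase, at 0.947 and Znrf2 at 0.942. Among the members, Acot2 and Acsl6 were closest to each other at 0.859, then Acot7 and Acsl6 at 0.751, and Acot1 and Acsl6 stood at -0.448.

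Markers of other cells were set beside these changes. Over all tested genes 11.5% were called with age over both genotypes. Since Acsl6 and Acot7 are known from neurons, the nerve list was read first: 5 of its 9 measured genes lay below the filter, and Uchl1 (0.76, limma adjusted p = 0.00305) and Stmn2 (0.60, adjusted p = 0.0155) rose with age, 2 of 4 tested, while Mbp (-0.46, adjusted p = 0.0921) and Sox10 (-0.16, adjusted p = 0.499), markers of myelinating glia, lay below 0. The summed signal of the list was 923 to 931 in control and 983 to 1198 in mdx hearts at 8 weeks, and 941 to 1198 in control and 1041 to 1355 in mdx hearts at 10.5 months. Of 8 fibroblast markers, 6 lay above 0 with age and 3 were called higher. Their sums were 16985 to 20249 and 20234 to 20848 in young and old controls, and 21933 to 24923 and 22525 to 30697 in young and old mdx hearts. Adipocyte markers had 0 of 4 tested genes called, and their sums overlapped between all groups (10058 to 18429). Ventricular myocyte markers all lay below 0 with age, 0 of 9 above it with a median of -0.41, and 2 fell, the potassium channel genes Kcnd2 and Kcnip2. Their sums were 286274 to 427774 on the young arrays of wide range but 132146 to 162237 on the other young arrays. Old arrays gave 139343 to 179042, and 216148 on the old array of wide range. The part of the wide range in this median was not tested. Of 8 endothelial markers 2 fell, Kdr and Egfl7, with a median of -0.29. Erythroid markers summed to 1150 to 4292 in young controls and to 870 to 1197 in the other 3 groups together. Of 2 tested erythroid markers, 1 was called lower with age, with a median of -0.71. Among smooth muscle and pericyte markers 1 of 6 was called lower, and among atrial markers 1 of 7 was called higher. Macrophage and monocyte markers had 0 of 10 called. The part of these cells in the members' changes was not tested. With the atrial covariate 3 of 6 genes were called with age over both genotypes, as without it, but the Acsl6 call in control hearts (adjusted p = 0.0947) and the Acot2 and Acsl6 calls in mdx hearts (adjusted p = 0.0683 and 0.0575) were lost.

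**Figure D4:**
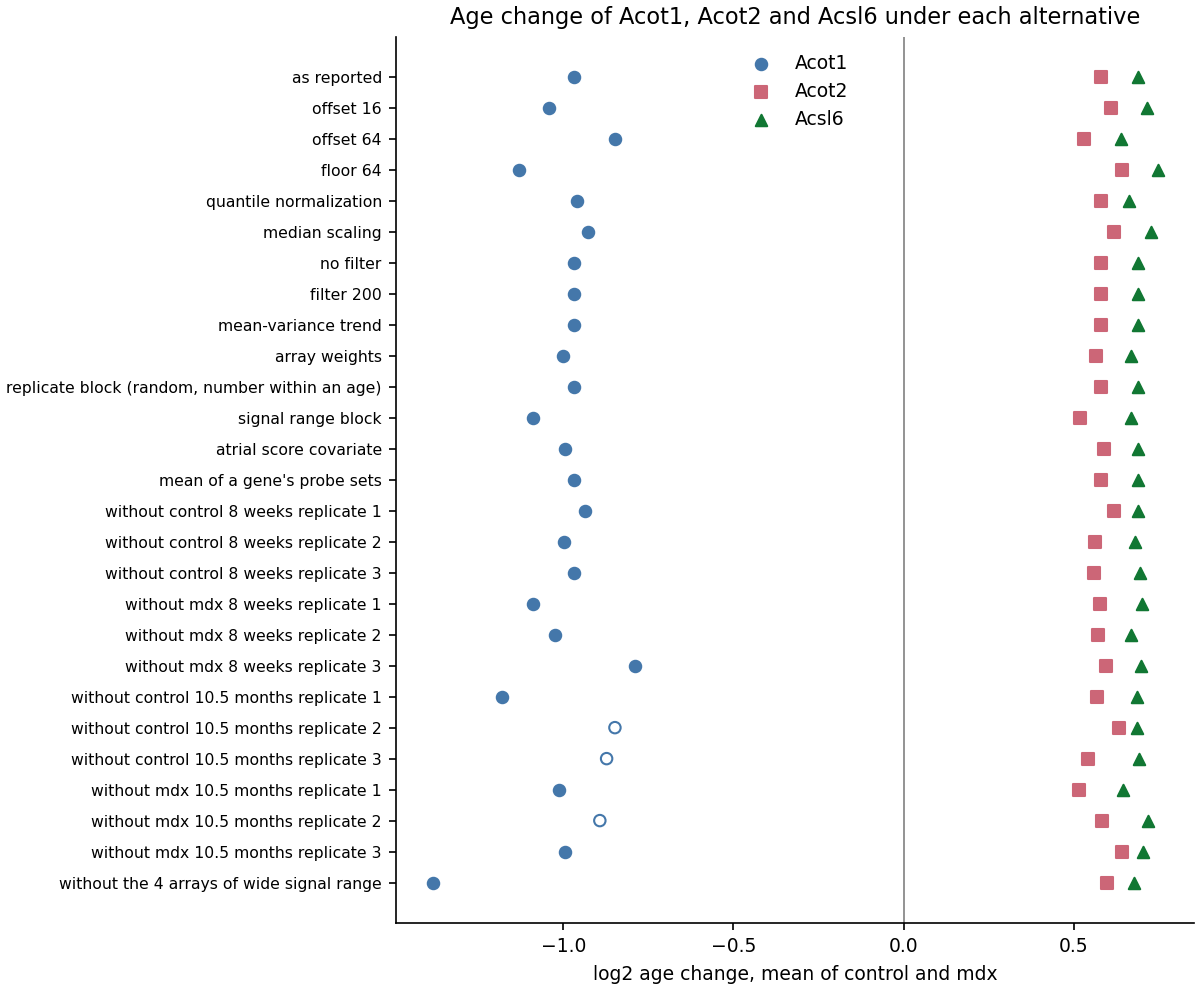
Log2 difference with age averaged over genotypes for Acot1, Acot2 and Acsl6 under each alternative analysis, filled where limma's adjusted p was below 0.05 and open where not. Acot2 (0.52 to 0.64) and Acsl6 (0.64 to 0.75) are filled throughout, and Acot1 (-1.38 to -0.79) has 3 open points.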

How the data were processed

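Values were the deposited intensity of each probe set on a linear scale, from 0.3 to 210298. The authors had scaled the arrays to a common trimmed mean, as the values show. The software that combined the probes was not given in the sources used here, and the labels name a standard Affymetrix protocol. No column lacked a sample (0 unmapped).

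Each array was scaled to a trimmed mean of 500 (2% left off at each end) and log2(signal + 32) was taken, so fold changes of dim genes are understated. Of 22690 probe sets, 64 control probe sets and those with a mean under 100 were left out, and 14932 were tested. Group means were fitted jointly over the 12 arrays in limma 3.58.1 under R 4.3.3 (lmFit, then eBayes, with 8 residual and 5.20 prior degrees of freedom), and p-values were Benjamini-Hochberg adjusted over the tested probe sets, called below 0.05. The procedure was tested on simulated data. In the annotation 20393 probe sets had 1 gene, 691 had several and 1606 had none, and 20364 matched current gene tables. The brightest probe set stood for its gene. Means ± SD are over 3 arrays and errors of log2 differences are SE. The number of arrays limits the precision.

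The members and gene lists were chosen with earlier results of these data known, and no p-value allows for that choice. Every member is named, from each fatty acid list the called genes (up to 3 per direction) or else the one with the smallest p, and for Acot1, Acot2 and Acsl6 the 3 most correlated genes. Alternatives changed the scaling, offset, filter, probe set choice, fit, blocks, an atrial covariate and the arrays included.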

Additional observations from a re-analysis of the deposited data

How the results depend on the processing

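The count of members that changed with age over both genotypes was 3 in every alternative that kept all arrays, and was 2 to 3 on leaving out 1 array. The alternative without the 4 arrays of wide range was chosen after seeing the data and kept replicate 3 as the only young mdx array. The count in control hearts went from 1 to 0, and that in mdx hearts from 3 to 1, when only the groups compared were fitted, with an atrial covariate and without the 4 arrays of wide range. Leaving out 1 array gave 0 to 1 in control hearts and 1 to 3 in mdx hearts (1 without mdx replicate 2 at 8 weeks or mdx replicate 1 or 2 at 10.5 months). For mdx against control, and its change with age, the count was 0 in every alternative. Only values that were never called turned sign. For mdx against control these were Acot7 (up to 0.030) and Acsl4 (up to 0.23) at 8 weeks, Acsl4 (up to 0.023, and 0.24 on its second probe set) and Acsl5 (up to 0.035) at 10.5 months, and Acot2 (down to -0.018) and Acsl4 (up to 0.12) for the change between ages. The Acsl4 age difference in mdx hearts became 0.044 with array weights, and that in control hearts 0.17 with the mean of its probe sets. For the second Acsl4 probe set it was 0.077 in mdx hearts with the atrial covariate and ran from -0.26 to 0.12 on leaving out 1 array (above 0 without mdx replicate 3 at 8 weeks or mdx replicate 2 at 10.5 months), and it was -0.22 over both genotypes without the 4 arrays of wide range. On leaving out 1 array Acot1 in control hearts ran from -0.66 to 0.0096, the latter without control replicate 2 at 10.5 months, and Acsl5 over both genotypes from -0.012 to 0.10, the former without control replicate 3 at 10.5 months.

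Counts over all genes varied more. They were 1022 (476 to 1606 over the alternatives) with age over both genotypes, 998 (312 to 1199) in mdx and 14 (5 to 150) in control hearts, 190 (9 to 251) for mdx at 8 weeks, 6 (0 to 71) at 10.5 months and 14 (0 to 76) for its change. Scaling to the median moved the all-gene median of that change from -0.02 to 0.09.

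Deviations of same-numbered control and mdx arrays correlated at -0.129, 0.135 and 0.115 at 8 weeks and at 0.0248, -0.0890 and -0.0684 at 10.5 months. Those of unlike-numbered arrays ran from -0.293 to 0.253 at 8 weeks and from -0.0835 to 0.14 at 10.5 months. With 3 arrays per group these values cannot exclude a pairing by replicate number. The age differences were refitted with the replicate number within an age as a random block. The members called stayed 3 with age over both genotypes, 3 in mdx hearts and 1 in control hearts. For mdx against control it was instead a fixed block, a different model. There the members called stayed 0, while genes called for mdx at 8 weeks went from 190 to 51.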

Other observations

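A probe set annotated to both Acot1 and Acot2, and so outside the 6 genes, gave 763 to 1207 in control and 934 to 1256 in mdx hearts at 8 weeks. The older control hearts gave 602 to 852 and the older mdx hearts 392 to 662. Its medians were lower at 10.5 months in both genotypes, unlike the Acot2 signal, but its probes cannot be assigned to either gene.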
